A study of Mus musculus with 6 samples.

Results

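Of 9707 distinct regions that the authors listed as differently methylated between 2 groups of mouse embryos, 44 were listed with an olfactory or vomeronasal receptor gene. A region counted as a member when its gene name was Olfr, Vmn1r or Vmn2r followed by a digit, whatever its cytosine context, and each region was counted once. The members belonged to 42 genes out of 4040 gene names in the table, with 30 regions at 28 Olfr genes, 1 region at 1 Vmn1r gene and 13 regions at 13 Vmn2r genes. The rule used names and no methylation value. The protein family entries in the table fitted the names, since 28 of 28 Olfr genes carried the olfactory receptor entry and 13 of 13 Vmn2r genes a family 3 or vomeronasal one. One more name with an olfactory receptor entry, Gm4461, fell outside the rule.

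The embryos came from C57BL/6 zygotes into which small RNAs from sperm had been microinjected at 2 ng/µl. In 3 embryos (replicates 1, 3 and 4) the small RNAs came from males with stress-induced depression, here called depressed-sRNA embryos, and in 3 (replicates 1, 2 and 4) from normal males, here called normal-sRNA embryos. All 6 were cultured at 37 °C and lysed one by one at embryonic day 4.5, about 108 h after injection, for bisulfite sequencing, which reads a converted unmethylated cytosine as thymine. The table gives 1 authors' mean level per group for each region, so no value below has a spread between embryos, a read depth or a test between groups, and no difference could be set against the variation from embryo to embryo. A whole embryo mixes its cell lineages, and no marker of stage or cell type could be checked, because no expression was measured.

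Olfactory receptors are G protein-coupled receptors for odorants, and each sensory neuron of the nose is known to express 1 allele of 1 such gene. Vmn1r and Vmn2r genes encode the 2 receptor families of the vomeronasal organ, which senses pheromones. Most of these genes sit in large arrays poor in CpG sites and are silent outside the olfactory system. Methylation of mammalian DNA falls mainly on cytosines followed by guanine (CG), whereas cytosines in CHG and CHH contexts, where H is any base but guanine, usually carry little.

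One stretch shows what a listed CHH region can look like in sequence, and Vmn1r1 was the member whose region overlapped its RefSeq promoter window, 250 bases before to 50 after the gene's start, among the 34 of 42 genes that had such a window. Its region (mm10, chromosome 1, 182158244 to 182158379; promoter, transcription start, 5′ UTR and exon in the authors' annotation) shared 105 bp with that window. The shared part held 62 CHH cytosines on the plus strand, the strand opposite to the gene, and 3 on the minus strand, with 2 CHG cytosines on both strands together and 0 CG sites. The 30 bases with the most CHH cytosines (GRCm38.p6, RefSeq, chromosome 1, 182158263 to 182158292, plus strand) are printed with these cytosines, 21 in number, in capitals.
Vmn1r1: CCCCtCtCCCttCtCCCCtCtCCtCCCCtC
The run is built of C and T alone on this strand. For the 41 CHH regions higher in depressed-sRNA embryos, the table gave a median of 45.1 CHH cytosines per 100 bp, against 50.0 in the other CHH regions listed as higher. The Vmn1r1 region had 61.0, above the upper quartile of 50 of the 41, so it was denser than most of them. The RefSeq windows of 1265 receptor genes had a median of 27.3 CHH cytosines per 100 bp and a 95th percentile of 34.7, counted on both strands.

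CHH methylation was listed as higher in depressed-sRNA embryos at almost every receptor region. Of the 44 regions, 42 were CHH regions, 41 of them higher and 1 lower in depressed-sRNA embryos, which makes 97.6% higher (exact 95% interval over regions 87.4 to 99.9%). Of all 6943 CHH regions listed, 79.6% were higher in depressed-sRNA embryos. The interval takes the receptor regions as independent, although many are neighbours in the same array, so it is too narrow. With neighbours within 1 Mb counted once, 20 higher and 1 lower stretches were left, for which no interval was computed. Whether the receptor share differs from that of the whole list was not tested. Receptor genes had 2 CHG regions, 1 in each direction, where 8.97% of 1884 listed CHG regions were higher. They had 0 CG regions, although 880 CG regions were listed, of which 1.48% were higher. The nearest CG region lay within 100 kb of 1 member, that of Olfr821 at 12518 bp.

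Levels in the 41 higher CHH regions were low in both groups. No level in any context or direction was set against a rate of bisulfite conversion, so the part of unconverted cytosines in the levels is unknown. The median of the authors' means was 5.21% (2.68 to 30.8%) for depressed-sRNA embryos and 1.04% (0.217 to 7.75%) for normal-sRNA embryos. The difference had a median of 4.04 percentage points, and the ratio of the levels a median of 4.45. No region of the whole list had an absolute difference below 2.0001 percentage points, so smaller differences could not appear among these values. In the 5487 other CHH regions listed as higher, the medians were 4.74% in depressed-sRNA embryos against 0.765% in normal-sRNA embryos, 3.80 percentage points for the difference and 5.97 for the ratio. The receptor regions had a median length of 188 bp and 82 CHH cytosines, against 186 bp and 88 in the others. The difference stayed under 5 percentage points at 31 of the 41 regions, and it was smallest at Vmn1r1 (2.68% in depressed-sRNA embryos against 0.439% in normal-sRNA embryos) and at Olfr1348 (3.79% against 1.39%).

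**Figure D1:**
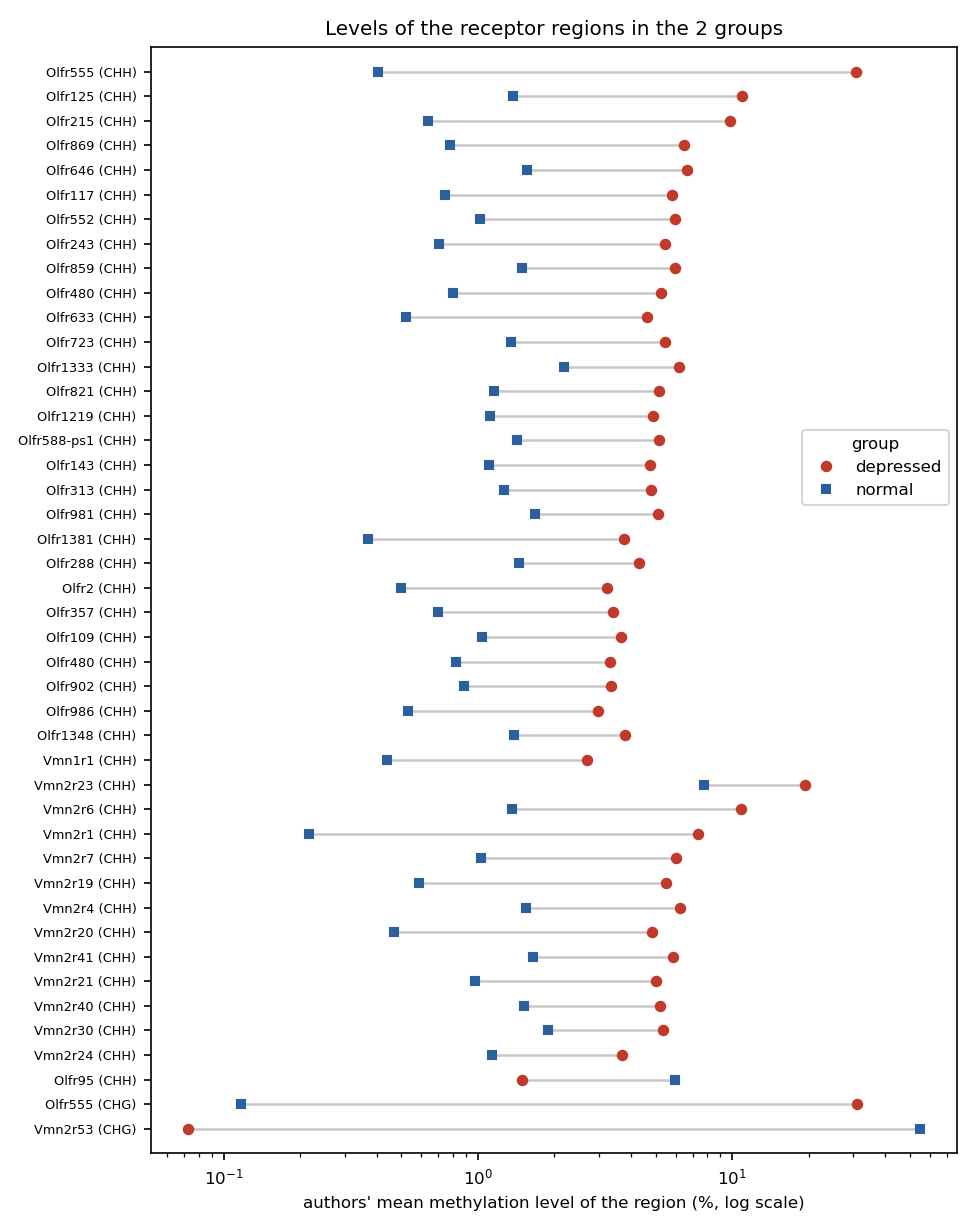
Authors' mean methylation level (%, log scale) of each of the 44 receptor regions in depressed-sRNA (red circles) and normal-sRNA embryos (blue squares), 1 value per group with no error, sorted by context, family and difference. The depressed value lies right of the normal one in 41 of 42 CHH regions, the exception being Olfr95, while the CHG regions of Olfr555 and Vmn2r53 point in opposite directions.

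**Figure D2:**
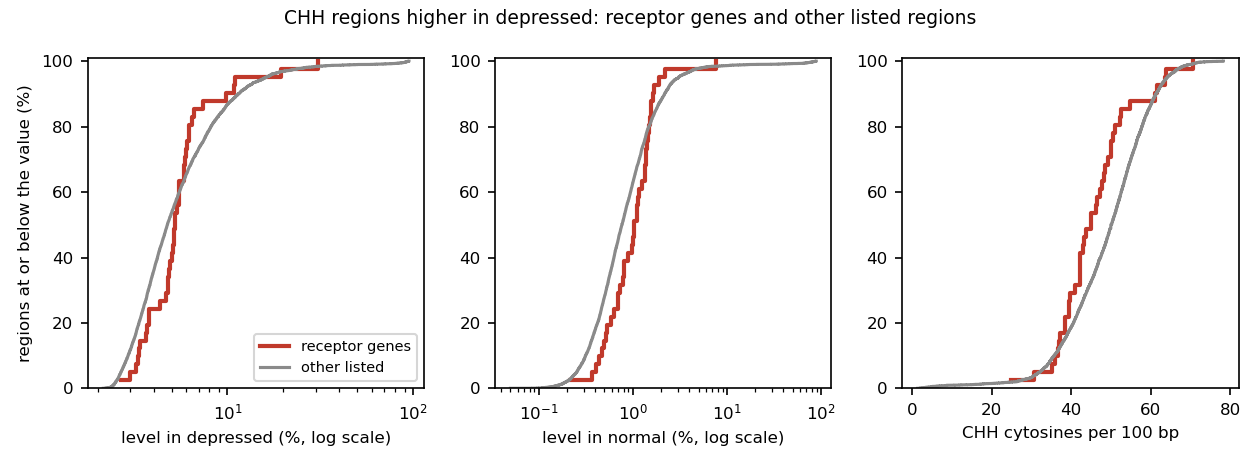
Cumulative share of regions (%) against the level in depressed-sRNA embryos (%), the level in normal-sRNA embryos (%) and the number of CHH cytosines per 100 bp, for the 41 receptor CHH regions higher in depressed-sRNA embryos (red) and the 5487 other such regions (grey). The curves for the levels lie close together, with medians of 5.21% and 4.74% in depressed-sRNA embryos, and the receptor regions hold fewer CHH cytosines per 100 bp, with medians of 45.1 and 50.0.

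Olfr555, an olfactory receptor gene in the large array on chromosome 7 where mouse class I (fish-like) receptors lie, stood apart from the other members. Its CHH region inside the coding exon (ENSMUSG00000073970; chromosome 7, 102659464 to 102659689; 56 CHH cytosines) was at 30.8% in depressed-sRNA embryos and 0.404% in normal-sRNA embryos. Its CHG region (102659515 to 102659611; 6 CHG cytosines) lay wholly inside that CHH region, over 97 bp, and was at 30.9% in depressed-sRNA embryos and 0.117% in normal-sRNA embryos. The level was thus nearly the same in both contexts in depressed-sRNA embryos and near 0 in normal-sRNA embryos. By size of the difference the CHH region ranked 27 among 5528 CHH regions listed as higher, while by the authors' statistic it ranked 3823. Overlap of a higher CHH region with any CHG region was rare, found for 7 of these 5528 regions (0.127%), of which Olfr555 was 1.

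In 3 more higher CHH regions depressed-sRNA embryos was above 10%. Vmn2r23 (chromosome 6, 123731761 to 123731890; intron) had the highest normal level of the 41, with 19.4% in depressed-sRNA embryos against 7.75% in normal-sRNA embryos. Olfr125 (chromosome 17, 37834329 to 37834456; promoter and intron) was at 10.9% in depressed-sRNA embryos against 1.37% in normal-sRNA embryos, over a RLTR31D_MM retroviral repeat, and Vmn2r6 was at 10.8% against 1.36%. Among all higher CHH regions, 13.2% had a level above 10% in depressed-sRNA embryos, so 4 of 41 was close to the whole list. Olfr215, listed by its promoter, was just under that level with 9.84% in depressed-sRNA embryos against 0.637% in normal-sRNA embryos, on 48 CHH cytosines, the fewest of the 41 regions.

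Olfr95, in a 3′ UTR and exon on chromosome 17 (37210351 to 37210491; 86 CHH cytosines), was the CHH region listed as lower. It was at 1.498% in depressed-sRNA embryos and 5.95% in normal-sRNA embryos, a difference of -4.45 percentage points. The other members on that chromosome, Olfr109 (3.65% in depressed-sRNA embryos against 1.04% in normal-sRNA embryos), Olfr117 (5.81% against 0.740%) and Olfr125, were higher. Of the 1415 lower CHH regions in the list, 6.36% had a smaller difference than Olfr95.

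Vmn2r53, a vomeronasal receptor gene on chromosome 7, carried the CHG region listed as lower (12603464 to 12603639; intron; 10 CHG cytosines). Its level was 0.0723% in depressed-sRNA embryos and 55.0% in normal-sRNA embryos. The part of unconverted cytosines in these values is unknown too. The region was listed as an exon of a second gene too, ENSMUSG00000082872, which the table leaves without a name, and it lay inside the RefSeq pseudogene Gm15773 (12602952 to 12604095). It ranked 271 of 1715 lower CHG regions by difference. No CHH region was listed for Vmn2r53.

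Olfactory receptor genes held 28 of the 41 higher CHH regions, and these lay mostly outside the RefSeq gene spans. The authors listed 17 of the 28 under the promoter of the receptor gene itself, 12 under its intron, 7 under its exon and 5 under its 3′ UTR, with some under several. In the RefSeq gene models, which for this family mostly begin at the start codon (686 of 944 windows of Olfr genes have ATG at the start, against 704 of 16227 windows of genes outside the receptor families), 25 of the 28 regions lay outside the gene's span, at a median distance of 1474 bp over the 28, and 27 lay within 5 kb. Where the strand was at hand, for 21 of them, the midpoint was set against the RefSeq start on which the promoter window was built. By that start 16 lay upstream, at a median of -2317 bp, and 5 downstream. Olfr646 was counted as upstream, although its region lay inside the wider RefSeq span of the gene (104097316 to 104107219).

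The strongest of these by the authors' statistic was Olfr723 (chromosome 14, 49933766 to 49934637; promoter), with 5.46% in depressed-sRNA embryos against 1.35% in normal-sRNA embryos. At 872 bp and 393 CHH cytosines it was the longest receptor region, and it ranked 5 of 5528 by the statistic, which adds up along a region, but 2461 by difference. Olfr552 followed, in an intron over an IMPB_01 satellite, with 5.94% in depressed-sRNA embryos against 1.02% in normal-sRNA embryos. Olfr1348 at a 5′ UTR, Olfr357 (3.39% against 0.698%) and Olfr981 (5.10% against 1.68%) at 3′ UTR exons, and Olfr986 (2.98% against 0.529%) at its promoter came next among olfactory receptors by that statistic. The region of Olfr986 ended 3 bases short of the RefSeq window.

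Beside Olfr125 and Olfr215, already described with differences of 9.58 and 9.21 percentage points, further regions were listed under a promoter, with or without an intron. Olfr902 was at 3.35% in depressed-sRNA embryos against 0.880% in normal-sRNA embryos, Olfr859 at 5.96% against 1.49%, and Olfr821 at 5.14% against 1.15%, all within 2 kb upstream of the RefSeq start. Olfr480 carried a pair of promoter regions 119 bp apart, at 3.30% against 0.817% and at 5.24% against 0.802%. Olfr143, Olfr288, Olfr313, Olfr588-ps1, Olfr646 and Olfr1219 had levels between 4.31 and 6.63% in depressed-sRNA embryos against between 1.11 and 1.55% in normal-sRNA embryos. Olfr588-ps1 is a pseudogene in RefSeq, and the region of Olfr1219 lay 10403 bp from the RefSeq gene. Olfr633 (promoter, 5′ UTR and exon) was at 4.65% in depressed-sRNA embryos against 0.523% in normal-sRNA embryos.

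The remaining olfactory members were listed inside transcripts. Olfr2, the mouse I7 receptor, whose rat counterpart responds to octanal, had 3.23% in depressed-sRNA embryos against 0.5003% in normal-sRNA embryos over an exon, intron and 3′ UTR. Olfr243, at its 3′ UTR, was at 5.46% against 0.704%. The introns of Olfr869 (6.47% against 0.780%), Olfr1333 (6.19% against 2.19%) and Olfr1381 (3.76% against 0.368%) held 1 region each. The 6 higher CHH regions of Olfr552, Olfr555, Olfr588-ps1, Olfr243, Olfr633 and Olfr646 fell in the class I array of chromosome 7.

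**Figure D3:**
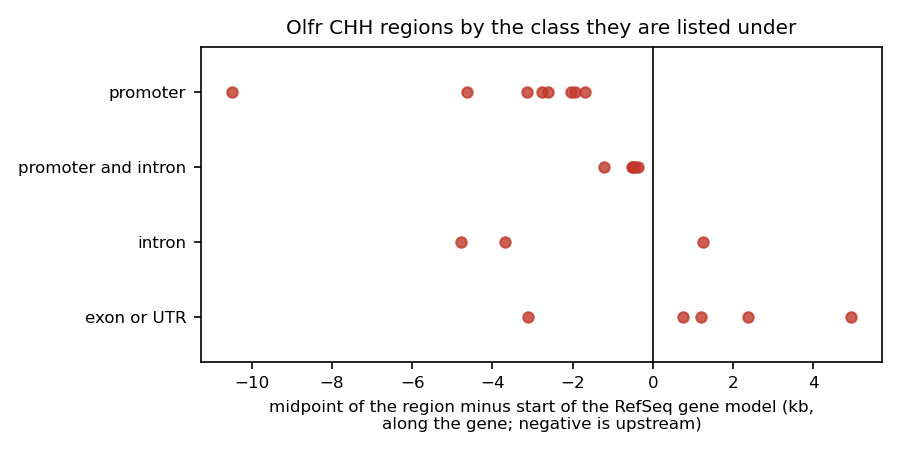
Midpoint of the CHH region minus the start of the RefSeq gene model (kb along the gene, negative upstream), for the 21 Olfr regions higher in depressed-sRNA embryos with a known strand, by the class they were listed under; each point is 1 region. The start is that of the promoter window. Of these, 16 lie upstream and 5 downstream of it, the farthest upstream being Olfr1219. The region of Olfr646 is drawn upstream but lies inside the wider RefSeq span of its gene.

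Vmn2r genes, which encode receptors with a large extracellular domain for peptides and proteins and have long introns, held 12 of the higher CHH regions, 12 of them in introns and 0 in exons or promoters. Medians were 5.69% in depressed-sRNA embryos against 1.25% in normal-sRNA embryos, next to 5.12% and 1.03% in the 28 Olfr regions. Vmn2r1, Vmn2r4, Vmn2r6 and Vmn2r7 on chromosome 3 belong to the family C receptors, which vomeronasal neurons co-express with other Vmn2r genes. Among the CHH members Vmn2r1 had the lowest level in normal-sRNA embryos, with 7.35% in depressed-sRNA embryos against 0.217% in normal-sRNA embryos. The widest of the 4 was Vmn2r4 (510 bp, 180 CHH cytosines) at 6.24% against 1.55%, over L1_Mur2 repeats.

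Of the 12 Vmn2r regions, 8 lay at overlapping distances along the RefSeq spans of Vmn2r genes on the same chromosome. Sequences were not compared, and no strand was at hand for Vmn2r21. Measured from the lower-coordinate end of each RefSeq span, the regions of Vmn2r4, Vmn2r6 and Vmn2r7 began at 3912, 4086 and 3924 bp and overlapped one another on that scale, in spans of 26760 to 28943 bp. The regions of Vmn2r30, Vmn2r40 and Vmn2r41 on chromosome 7 began at 6377, 6298 and 6285 bp in spans of 23647 to 25283 bp. Those of Vmn2r20 and Vmn2r21 on chromosome 6 began at 2400 and 2425 bp. Levels were 5.21 to 5.87% in depressed-sRNA embryos and 1.52 to 1.89% in normal-sRNA embryos for Vmn2r30, Vmn2r40 and Vmn2r41. They were 4.86 and 5.01% against 0.468 and 0.976% for Vmn2r20 and Vmn2r21. Such levels in depressed-sRNA embryos were not particular to these groups, since the quartiles of all 41 higher CHH receptor regions were 4.31 and 6.04%. Vmn2r7 (6.04% against 1.03%) lay close to Vmn2r4, while Vmn2r6 was higher in depressed-sRNA embryos as given above. The placing of reads that match several of these similar genes is a step not given in the sources used here, so the members of such a group may not be independent. The other regions, in Vmn2r1, Vmn2r19 (5.51% against 0.585%), Vmn2r23 and Vmn2r24 (3.68% against 1.14%), had no such partner on their chromosome.

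**Figure D4:**
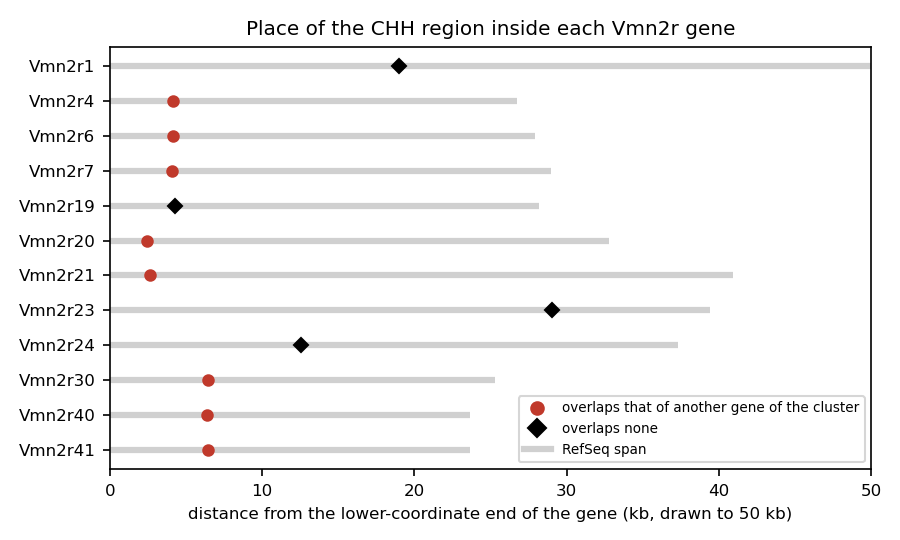
Midpoint of the CHH region inside each of the 12 Vmn2r genes with one, as distance (kb) from the lower-coordinate end of the RefSeq span (grey bar, that of Vmn2r1 running past the end of the axis). Red circles mark the 8 regions whose interval on this scale overlaps that of another gene of the same chromosome, in 3 groups of genes, and black diamonds the rest.

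Repeats were listed for 16 of the 41 higher CHH regions (39.02%, exact 95% interval 24.2 to 55.5%). Repeats were listed for 62.6% of all 5528 higher CHH regions, of which 36.9% lay in a repeat alone and so had no gene name. Of the 2825 others with a gene name, 39.3% were in a repeat, so the receptor share was below that of the whole list and near that of the named regions. The satellite IMPB_01 and the retroviral repeat RLTR31D_MM were each listed for 5 of the 41 (12.2%), against 8.57% and 4.28% of the named others and 13.7% and 6.42% of the whole list. LINE-1 was listed for 6 (14.6%), against 6.34% of the named others and 12.9% of the whole list. Exact intervals for the receptor shares reached from 4.08 to 26.2% for the first 2 and from 5.57 to 29.2% for LINE-1. Promoters were listed for 18 of the 41 (43.9%), against 9.49% of the named others and 9.06% of the whole list, and exons for 8 (19.5%), against 3.12% and 2.01%. Introns of any gene were listed for 26 (63.4%), 24 of them in the receptor gene itself, which lies below the 95.7% of the named others and above the 56.7% of the whole list. Receptor genes of the Olfr and Vmn1r families are short, with median RefSeq lengths of 950 and 924 bp against 19047 bp for protein-coding genes outside the receptor families; the part of gene length in these shares was not tested. CpG islands were listed for 0 of the 41, and for 5 of the 5528 in the whole list (0.0904%), so a lower share could not be seen with 41 regions.

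A higher CHH region was listed for 27 of 1110 protein-coding Olfr genes (2.43%), 1 of 230 Vmn1r genes (0.435%) and 12 of 123 Vmn2r genes (9.76%). Of all 21900 protein-coding genes 9.11% had one. The Vmn2r genes, with a median span of 24544 bp, were thus near the share of all genes, and the short Olfr and Vmn1r genes below it. Listed names were matched to protein-coding genes by symbol or synonym, so these counts need not cover the same genes as the members. The member Olfr588-ps1, for example, is a pseudogene in RefSeq. Per length of RefSeq span the receptor genes together had 15 higher CHH regions in 5.71 Mb, or 2.63 per Mb (exact Poisson interval 1.47 to 4.34), against 2.59 per Mb (2.49 to 2.69) in protein-coding genes outside the families. Of these 15, 12 were in Vmn2r genes, at 3.75 per Mb (1.94 to 6.54), while Olfr genes had 3, at 1.41 per Mb (0.291 to 4.13), and Vmn1r genes 0. With 10 kb added on each side, which takes in most Olfr regions, the values were 2.46 per Mb for Olfr, 0.631 for Vmn1r (0.130 to 1.84), 2.16 for Vmn2r and 2.11 (1.63 to 2.70) for all receptor genes, against 2.46 per Mb for genes outside the families. A lower CHH region was listed for 1 of 1463 receptor genes (0.0684%), against 5.37% of all protein-coding genes, and a lower CHG region for 1 (0.0684%) against 6.4%. A higher CHG region was listed for 1 receptor gene as well, against 0.758% of all genes. A lower CG region was listed for 0 of the 1463, which allows up to 0.252%, against 2.54% of all genes, and a higher CG region for 0 against 0.0411%.

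The arrays in which the receptor genes lie were set against the rest of the genome as well. Neighbouring receptor genes with gaps of at most 500 kb were joined into 47 clusters of 5 or more genes, which held 1713 receptor genes and pseudogenes in 55.4 Mb. Higher CHH regions of any annotation numbered 113 there, or 2.04 per Mb (exact Poisson interval 1.68 to 2.45), and 2.02 per Mb elsewhere. Lower CHH regions were at 0.199 per Mb (0.0991 to 0.355) in the clusters against 0.525 per Mb elsewhere, lower CHG regions at 0.199 against 0.638 per Mb, and lower CG regions at 0.0902 (0.0293 to 0.211) against 0.322 per Mb. With gaps of at most 200 kb lower CHG regions were at 0.0660 per Mb in the clusters, and without chromosomes 9 and 10, which hold 4 of the 5 lower CG regions of the clusters, lower CG regions were at 0.0205 per Mb. The intervals cover counting error alone, neighbouring regions are not independent, and the clusters were defined after the table had been seen.

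**Figure D5:**
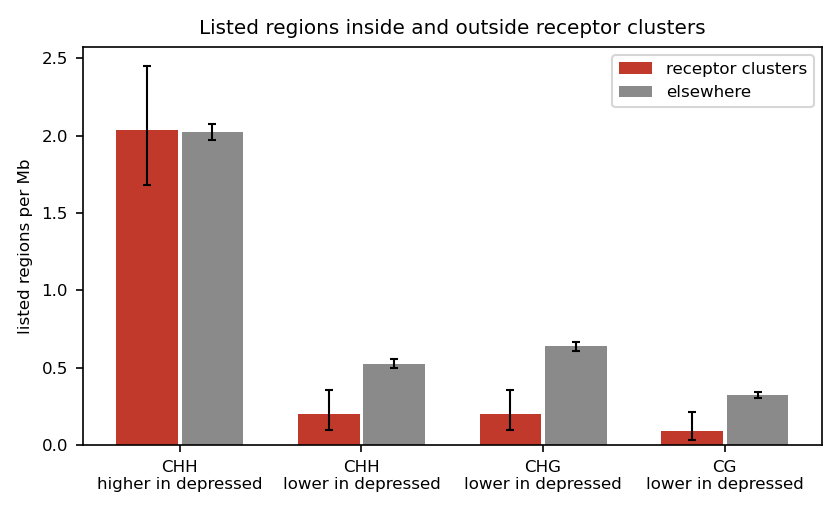
Listed regions per Mb inside the 47 receptor clusters (red) and in the rest of the annotated chromosomes (grey) by context and direction, with exact 95% Poisson intervals of the counts as bars. Higher CHH regions are about as dense in both, at 2.04 and 2.02 per Mb, and the 3 kinds of lower region are sparser in the clusters.

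Clusters differed among themselves. The array of 9 Vmn2r genes on chromosome 6 (123308333 to 124231784) held 8 higher CHH regions in 0.923 Mb, or 8.66 per Mb (3.74 to 17.1), 5 of them listed with a receptor gene. The 8 Vmn2r genes on chromosome 3 had 5 in 0.641 Mb, or 7.80 per Mb (2.53 to 18.2). The class I array on chromosome 7, with 158 genes and pseudogenes, had 14 in 2.89 Mb, or 4.84 per Mb (2.65 to 8.12). These 3 were picked as the densest with at least 5 regions, so their values describe the top of 47 clusters. The listed regions of Vmn1r1 and Olfr215 lay outside the cluster bounds, that of Olfr215 just past the end of an array of 5 Olfr genes to which the gene itself belongs.

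Other genes of olfactory and vomeronasal function were looked up as a list of 92, covering signalling, receptor export, receptor choice, axon targeting and other chemoreceptor families. Higher CHH regions were listed for 16 of them (17.4%, against 9.11% of all protein-coding genes), lower CHH regions for 8 (8.70%, against 5.37%), lower CHG regions for 7 (7.61%, against 6.4%) and lower CG regions for 3 (3.26%, against 2.54%). The list was picked by hand, and its genes were not matched in length to other genes. Its higher CHH regions lay mostly in introns, and the part of gene length in these shares was not tested. In the part of the list that holds the other chemoreceptor families, trace amine-associated, formyl peptide and Ms4a receptors, 1 of 43 genes had a region of any kind, Ms4a20 with 4.54% in depressed-sRNA embryos against 0.353% in normal-sRNA embryos.

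The adhesion gene Ncam2 was counted in the part of the list for transduction in the cilia. That part had a higher CHH region in 6 of 16 genes (37.5%, against 9.11% of all protein-coding genes). These were Ano2, Pde1c, Stoml3, Ncam2, Gnal and Cngb1. Ano2, the calcium-activated chloride channel of olfactory neurons, carried 4 intronic ones, the one with the largest authors' statistic at 2.95% in depressed-sRNA embryos against 0.728% in normal-sRNA embryos. Pde1c, a phosphodiesterase of the cilia, was at 4.16% against 0.637%, Stoml3 at 3.08% against 0.370%, and Ncam2, an adhesion molecule of olfactory axons, at 8.95% against 1.36%. Among axon targeting genes 4 of 7 had one (57.1%, against the same 9.11%). Both parts are small and were picked by hand, and their genes were not matched in length to other genes. Kirrel3, an adhesion gene of glomerular sorting, was at 4.29% against 0.452%, and Gap43, a growth cone gene, at 13.1% against 2.05%. Ano1, in the vomeronasal part, was at 3.64% against 0.812%. These levels lay within the range of the receptor regions, and of the other Ano2 regions one was at 12.4% against 0.370% and one was high in both groups, at 31.7% against 20.8%. Kirrel3 carried lower regions too, at 0.0614% in depressed-sRNA embryos against 40.8% in normal-sRNA embryos in the CHG context and at 8.61% against 74.9% in the CG context. Pde1c had a lower CG region, at 10.1% against 50.9%. In the vomeronasal part, Gnao1 had lower regions alone, at 0.299% against 22.6% in the CHH context and at 0.0802% against 23.3% in the CHG context.

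Of the 8 genes with a lower CHH region, 5 were among the 18 genes put by hand under receptor choice and neuron fate. That is 27.8% of the 18, against 5.37% of all protein-coding genes. A lower CHG region was listed for 4 of the 18 (22.2%, against 6.4%). What these genes do in embryos of this stage was not examined. Cbx5, which encodes the heterochromatin protein HP1α, was at 0.896% in depressed-sRNA embryos against 55.6% in normal-sRNA embryos at its 3′ UTR. Emx2, a homeobox gene needed for normal receptor expression, was at 0.536% against 37.5%, Sox2 at 0.266% against 50.9%, and Ldb1, a cofactor that joins receptor enhancers, at 0.338% against 8.54%. Smchd1, a chromatin protein gene, carried a lower CHH region at 1.41% against 69.04%. Gnb1, a G protein subunit gene, was at 0.469% against 48.4% at its 3′ UTR, and Nrp1, a semaphorin receptor gene, at 0.343% against 4.01%, beside a higher CHH region of the same gene at 6.53% against 0.453%. Lhx2, whose product drives receptor genes, had the one higher CHG region of the list, at 20.8% in depressed-sRNA embryos against 0.0844% in normal-sRNA embryos.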

How the data were processed

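Per the submitters' processing notes, reads were handled with Trim Galore 0.3.3, Bismark and SAMtools on mm10. The region caller, its thresholds, the coverage filter, the placing of multi-mapping reads and the pooling of embryos are steps not given in the sources used here. Per the file headers, the deposited levels are group mean fractions (0 to 1, printed here as percent), with their difference (depressed-sRNA minus normal-sRNA embryos) and a region statistic, both signed scores by the authors. Coverage is unknown.

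The 18732 annotation entries were collapsed to 9707 regions with Python 3.11.15 and pandas 2.3.3, and the collapse was tested on simulated data. RefSeq (GRCm38.p6, the same build as mm10) supplied gene spans and promoter windows: 42 of 42 gene symbols matched and 34 had a window. Intervals at 95% are exact binomial or Poisson over listed regions and do not measure the error of a level. No test was run, for want of values per embryo. Members, lists and the rule for named genes (few regions in a class, largest statistic or difference, exons, promoters, several regions) were chosen with earlier results of these data known. Genes outside that rule are named to account for every member, to complete a count or to show the opposite direction.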

Additional observations from a re-analysis of the deposited data

How the results depend on the processing

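No paired analysis was possible because the table holds no values per embryo, so embryos could not be left out or blocked by replicate number either. Of 106 recomputed values, 83 stayed within their interval or within 1.5 times their count, and 23 did not. With a difference of at least 10 percentage points, 2 higher and 0 lower CHH regions and 3 genes were left, 100% of the CHH regions were higher, median levels were 25.1% in depressed-sRNA embryos against 4.08% in normal-sRNA embryos, and repeats, exons and promoters were listed for 0%, 50% and 0%. With a statistic at or above the median of its context, 16 higher and 0 lower CHH regions and 0 CHG regions of either direction were left at 16 genes, 100% of the CHH regions were higher, repeats were listed for 56.2% and promoters for 25%. With at least 10 cytosines 0 higher CHG regions were left, and without chromosome 7 there were 0 CHG regions in either direction. The smaller sets follow from the stricter limits themselves. Requiring the RefSeq gene within 10 kb or names without a suffix moved none of these values past its limit. Counting neighbours within 1 Mb once left 20 higher and 1 lower CHH stretches, 95.2% higher, and was run for that share alone. For the cluster densities, alternatives chosen after seeing the data gave a density in clusters over that elsewhere of 1.01 to 1.04 for higher CHH regions, 0.251 to 0.564 for lower CHH, 0.103 to 0.515 for lower CHG and 0.139 to 0.343 for lower CG regions. The lowest CHG value (0.103, at 0.0660 per Mb) came with 200 kb gaps, and lower CG regions were at 0.0205 per Mb without chromosomes 9 and 10.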

Other observations

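Inside the 47 receptor clusters, 74 of the 113 higher CHH regions were not listed with a receptor gene, 37 of them under repeats alone. The 27 lower regions of any context in the clusters included 2 listed with a receptor gene, Olfr95 and Vmn2r53. Another 11 carried the name of a different gene within the cluster bounds, several of them widely expressed. Hnrnpc, an RNA-binding protein gene, had a lower CHH region at 0.461% in depressed-sRNA embryos against 53.3% in normal-sRNA embryos, and a lower CHG region at 0.0451% against 76.4%. Ube2m, a NEDD8-conjugating enzyme gene, had a CHG region at 0.911% against 24.3%. Another 14 had no gene name, and the 5 lower CG regions, listed under repeats alone, were among these.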
